A study of Homo sapiens with 6 samples.

Results

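SMAD proteins carry the signal of the TGF-beta family from receptors at the cell surface to the genome. The genes described here are the receptor SMADs (SMAD1, SMAD2, SMAD3, SMAD5 and SMAD9), their common partner SMAD4, and ZFYVE9, which encodes the receptor-associated SMAD anchor SARA. They were taken by gene symbol, not by any measured value, and are 7 of the 60240 genes of the deposited expression table. Each symbol matched 1 Ensembl gene, and all 7 were among the 18723 genes tested.

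The RNA came from HepG2, an established human hepatocellular carcinoma line. In the GDF11 group, cells were kept for 24 h with recombinant GDF11 at 100 ng/ml. GDF11 (growth differentiation factor 11) is a circulating ligand of the TGF-beta family, close to myostatin. The control group received no GDF11. Apart from this and the RNA integrity numbers given below, nothing distinguishes the groups in the labels. Each group has 3 libraries, which the labels' protocols call biological replicates of a single cell line, so their spread is between cultures and not between donors.

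Ligands of this family bring together type II and type I receptor kinases, and the type I kinase adds phosphates to the tail of a receptor SMAD. SMAD2 and SMAD3 are the usual substrates of the activin and TGF-beta type I receptors, among them ALK4 and ALK5, through which GDF11 is known to signal. SMAD1, SMAD5 and SMAD9 (whose protein is also called SMAD8) are the usual substrates of the bone morphogenetic protein (BMP) receptors, which in hepatocytes drive the iron hormone gene HAMP. Phosphorylated receptor SMADs bind SMAD4, enter the nucleus and act on target genes, among them those of the inhibitory SMADs that shut the pathway down. The RNA measured here reports how much message each gene has, and says nothing of protein, phosphorylation or location. In bulk RNA, fewer cells of a type and less RNA per cell cannot be told apart.

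Of the 7 genes, 2 were higher with GDF11 (SMAD3 and SMAD5), 1 was lower (SMAD9) and 4 were not called (SMAD1, SMAD2, SMAD4 and ZFYVE9). A gene was called when its limma p, adjusted by the Benjamini-Hochberg method over all tested genes, was under 0.05. Over all 18723 tested genes 22.4% were called, 11.7% as higher and 10.8% as lower. The groups did not overlap for 3 of the 7 genes, the same SMAD3, SMAD5 and SMAD9, and for 40.5% of all tested genes. The count without overlap is near that background, and with 7 genes neither count says anything of the set as a whole.

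The promoter windows of the 3 called genes are shown first, because these genes met the threshold for a call. The sequences are from RefSeq (GRCh38.p14) and run 5′ to 3′ on the gene's own strand, from 250 bases before the annotated start to 50 after it. Capitals mark CAGAC or its reverse complement GTCTG, the core letters of the SMAD-binding element, and GGCGCC, a GC-rich motif known from BMP-responsive elements. SMAD3 has 5 such windows for different transcript starts. The first is shown (chr15:67065352-67065651, plus strand), with those of SMAD5 (chr5:136132595-136132894, plus strand) and SMAD9 (chr13:36920189-36920488, minus strand). The annotated start used for SMAD9 is base 36920238, which lies inside the gene's span, whose end is 36920854.
SMAD3: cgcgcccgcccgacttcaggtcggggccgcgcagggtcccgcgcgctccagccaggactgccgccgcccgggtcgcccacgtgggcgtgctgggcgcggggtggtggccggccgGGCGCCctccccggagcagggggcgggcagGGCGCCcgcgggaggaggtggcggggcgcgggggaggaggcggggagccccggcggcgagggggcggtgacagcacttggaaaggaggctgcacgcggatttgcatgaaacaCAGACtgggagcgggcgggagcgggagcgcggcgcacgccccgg
SMAD5: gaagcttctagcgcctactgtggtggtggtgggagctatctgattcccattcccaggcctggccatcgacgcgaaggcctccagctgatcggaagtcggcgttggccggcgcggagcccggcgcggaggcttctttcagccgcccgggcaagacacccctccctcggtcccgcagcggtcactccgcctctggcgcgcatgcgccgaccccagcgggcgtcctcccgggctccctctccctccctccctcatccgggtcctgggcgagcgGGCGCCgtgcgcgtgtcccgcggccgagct
SMAD9: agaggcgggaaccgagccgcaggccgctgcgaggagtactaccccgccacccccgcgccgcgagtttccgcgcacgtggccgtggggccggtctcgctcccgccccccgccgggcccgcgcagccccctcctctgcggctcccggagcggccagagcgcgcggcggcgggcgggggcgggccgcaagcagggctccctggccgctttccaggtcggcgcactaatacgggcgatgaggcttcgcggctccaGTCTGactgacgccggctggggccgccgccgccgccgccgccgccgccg

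Searched on both strands, CAGAC was in the shown windows of SMAD3 and SMAD9 but not in that of SMAD5. It began 6 bases past the annotated start in SMAD3 and 1 base past it in SMAD9. Such a short run of letters is common, and 45.3% of all 35116 promoter windows of this length hold it. GGCGCC, in 19.2% of all windows, was in the shown SMAD3 window at 136 and 106 bases before the start, and in the SMAD5 window at 20 bases after it. Of the genes that were not called, SMAD2 (each of 2 windows), SMAD4 and ZFYVE9 had GGCGCC and no CAGAC, and SMAD1 had CAGAC in 1 and GGCGCC in 2 of its 5 windows. Of the SMAD3 windows not shown, the fourth held CAGAC at 1 place and the fifth at 4, and none held GGCGCC. The palindromic SMAD element GTCTAGAC, which holds neither of the other motifs, was in no window of the 7 genes and in 71 of all windows (0.202%). The longer BMP-response motif, GGCGCC followed by any 5 bases and GTCT, was in no window of the 7 genes and in 36 of all windows (0.103%). These are matches of letters in these windows only, and binding was not measured.

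SMAD3, the DNA-binding receptor SMAD of the activin and TGF-beta arm, was higher with GDF11. Values are given as deposited, in variance-stabilised log2 units whose floor, for a gene with no read, is 5.52. SMAD3 (ENSG00000166949.16, chr15:67065602-67195169, GRCh38.p14) stood at 12.44, 12.46 and 12.14 in GDF11 replicates 1, 2 and 3, and at 10.87, 11.15 and 11.17 in control replicates 1, 2 and 3. Each GDF11 library was above each control library. The mean was 12.35 ± 0.18 with GDF11 and 11.06 ± 0.17 in controls (SD, n = 3 each). The difference was 1.28 ± 0.16 (limma moderated SE, 95% interval 0.92 to 1.65, adjusted p = 0.000753). Back-transformed to normalised reads, SMAD3 held 5453, 5558 and 4417 reads with GDF11 and 1778, 2174 and 2221 in controls, a ratio of group means of 2.50. Ranked from the largest increase downwards, SMAD3 was number 490 of the 18723 tested genes.

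SMAD2, the close paralog of SMAD3 whose main isoform does not bind DNA directly, was not called. SMAD2 (ENSG00000175387.16, chr18:47808957-47930872) stood at 11.14, 11.20 and 11.38 in GDF11 replicates 1 to 3 and at 11.11, 10.95 and 11.23 in control replicates 1 to 3. Its groups overlapped, with GDF11 replicates 1 and 2 below control replicate 3. The mean was 11.24 ± 0.12 with GDF11 and 11.10 ± 0.15 in controls, a difference of 0.14 ± 0.15 (95% interval -0.20 to 0.48, limma adjusted p = 0.526). The interval leaves room for a change of up to 0.48 upwards and does not show that the level stayed the same.

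The balance of SMAD3 and SMAD2 was set out within each library, since both genes were then measured in the same RNA. Reads per kilobase of the longest annotated transcript (a level) were 13.5, 13.1 and 9.22 times as high for SMAD3 as for SMAD2 in GDF11 replicates 1 to 3, and 4.49, 6.19 and 5.13 times as high in control replicates 1 to 3. Each GDF11 ratio was above each control ratio. The log2 ratio averaged 3.56 ± 0.31 with GDF11 and 2.38 ± 0.23 in controls, a difference of 1.17 (exact two-sided permutation test over libraries, p = 0.1, the smallest that 3 against 3 allows). With median transcript lengths the ratio was 1.36, 1.33 and 0.930 in GDF11 replicates 1 to 3 and 0.452, 0.624 and 0.517 in control replicates 1 to 3, so which gene had the higher level depends on the lengths. The log2 difference between the groups does not depend on them.

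**Figure D1:**
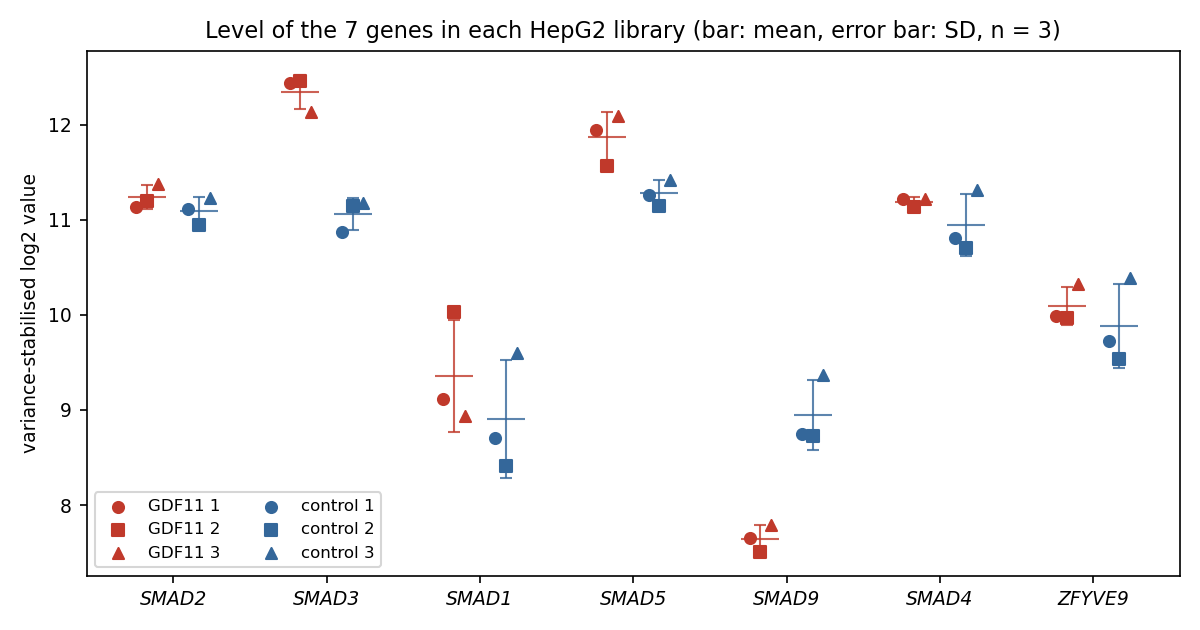
Variance-stabilised log2 values (vertical axis) of the 7 genes in each library, GDF11 (red) left of control (blue), with replicates 1, 2 and 3 as circles, squares and triangles; long bars are group means and error bars SDs (n = 3). SMAD3 and SMAD5 lie higher and SMAD9 lower in all GDF11 libraries, while the groups overlap for SMAD2, SMAD1, SMAD4 and ZFYVE9.

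SMAD9, a receptor SMAD of the BMP arm, was lower with GDF11. SMAD9 (ENSG00000120693.13, chr13:36844831-36920854) stood at 7.65, 7.51 and 7.78 in GDF11 replicates 1 to 3, against 8.74, 8.73 and 9.37 in control replicates 1 to 3. Each GDF11 library was below each control library. The mean was 7.65 ± 0.14 with GDF11 and 8.95 ± 0.37 in controls, and the difference was -1.30 ± 0.20 (95% interval -1.75 to -0.85, limma adjusted p = 0.00217). In normalised reads these were 120, 102 and 138 with GDF11 and 342, 336 and 572 in controls, so that the control mean was 3.47 times the GDF11 mean. Near these values the deposited scale compresses changes: at a value of 8 it keeps 0.696 of a log2 change. On a log2 scale of the reads plus 1 the SMAD9 difference was -1.75. Ranked from the largest decrease upwards, SMAD9 was number 235 of the tested genes.

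SMAD5, a further BMP-arm receptor SMAD and the closest paralog of SMAD1, was called higher, with little margin. SMAD5 (ENSG00000113658.18, chr5:136132845-136182733) stood at 11.94, 11.57 and 12.09 in GDF11 replicates 1 to 3 and at 11.26, 11.15 and 11.42 in control replicates 1 to 3. The groups did not overlap, and the gap between GDF11 replicate 2 and control replicate 3 was the narrowest among the 3 called genes. The mean was 11.87 ± 0.27 with GDF11 and 11.28 ± 0.14 in controls, a difference of 0.59 ± 0.18 (95% interval 0.19 to 0.99, limma adjusted p = 0.0417) and a ratio of mean reads of 1.54. The call was lost without GDF11 replicate 1 (0.55, adjusted p = 0.147), without GDF11 replicate 3 (0.48, 0.167), without control replicate 1 (0.58, 0.116) and without control replicate 2 (0.52, 0.118). No filter on low values (0.59, adjusted p = 0.0650) and adding RNA integrity to the fit (0.36, 0.408) ended it as well.

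SMAD1, the third BMP-arm receptor SMAD, varied most among the 7 genes within the groups. SMAD1 (ENSG00000170365.10, chr4:145480770-145559176) stood at 9.12, 10.03 and 8.93 in GDF11 replicates 1 to 3 and at 8.70, 8.41 and 9.60 in control replicates 1 to 3. The groups overlapped, with control replicate 3 above GDF11 replicates 1 and 3. The mean was 9.36 ± 0.59 with GDF11 and 8.91 ± 0.62 in controls, and the difference of 0.45 ± 0.36 was not called (95% interval -0.35 to 1.26, limma adjusted p = 0.387). Single libraries set this value: it was 0.12 without GDF11 replicate 2 and 0.80 without control replicate 3 (adjusted p = 0.0622).

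The 3 BMP-arm SMADs were also compared as parts of their own sum of reads per kilobase, which is a composition and not a total. SMAD9 made up 3.03%, 2.52% and 3.28% of that sum in GDF11 replicates 1 to 3, against 12.3%, 13.5% and 14.9% in control replicates 1 to 3. The GDF11 libraries were all below the controls. SMAD5 held most of the sum throughout, with 77.0%, 57.7% and 80.6% in GDF11 replicates 1 to 3 and 67.6%, 69.3% and 54.8% in control replicates 1 to 3, and its groups overlapped. The SMAD1 value of GDF11 replicate 2 and of control replicate 3 was the highest of each group, and these are the libraries with the lowest SMAD5 share. Across all 5 receptor SMADs, SMAD2 and SMAD3 together held 54.0% ± 3.47 with GDF11 and 41.4% ± 4.72 in controls (SD, n = 3 each), and no GDF11 library was below a control library. These shares used the longest transcript of each gene and were not tested. With median lengths SMAD2 and SMAD3 together held 43.4% ± 2.89 with GDF11 and 41.6% ± 2.34 in controls, and the groups overlapped. The SMAD9 share was then 0.882%, 0.822% and 0.938% in GDF11 replicates 1 to 3 and 3.90%, 4.24% and 5.16% in control replicates 1 to 3, still without overlap.

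SMAD4, the partner that all receptor SMADs share, was not called. SMAD4 (ENSG00000141646.14, chr18:51030213-51085042) stood at 11.22, 11.14 and 11.22 in GDF11 replicates 1 to 3 and at 10.81, 10.70 and 11.32 in control replicates 1 to 3. The 3 GDF11 libraries lay close together above control replicates 1 and 2, and control replicate 3 lay above them all. The mean was 11.19 ± 0.05 with GDF11 and 10.94 ± 0.33 in controls, a difference of 0.25 ± 0.18 (95% interval -0.17 to 0.66, limma adjusted p = 0.355). Without control replicate 3 the difference was 0.44 and was called higher (adjusted p = 0.0171).

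ZFYVE9 encodes SARA, an early-endosome protein that holds SMAD2 and SMAD3 near the receptor. ZFYVE9 (ENSG00000157077.14, chr1:52142089-52346634) stood at 9.99, 9.97 and 10.33 in GDF11 replicates 1 to 3 and at 9.73, 9.53 and 10.39 in control replicates 1 to 3. As for SMAD4, control replicate 3 was the highest of the 6 libraries. The mean was 10.10 ± 0.20 with GDF11 and 9.88 ± 0.45 in controls, a difference of 0.21 ± 0.23 that was not called (95% interval -0.31 to 0.74, limma adjusted p = 0.534). Without control replicate 3 it was 0.47 and was called higher (adjusted p = 0.0428).

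**Figure D2:**
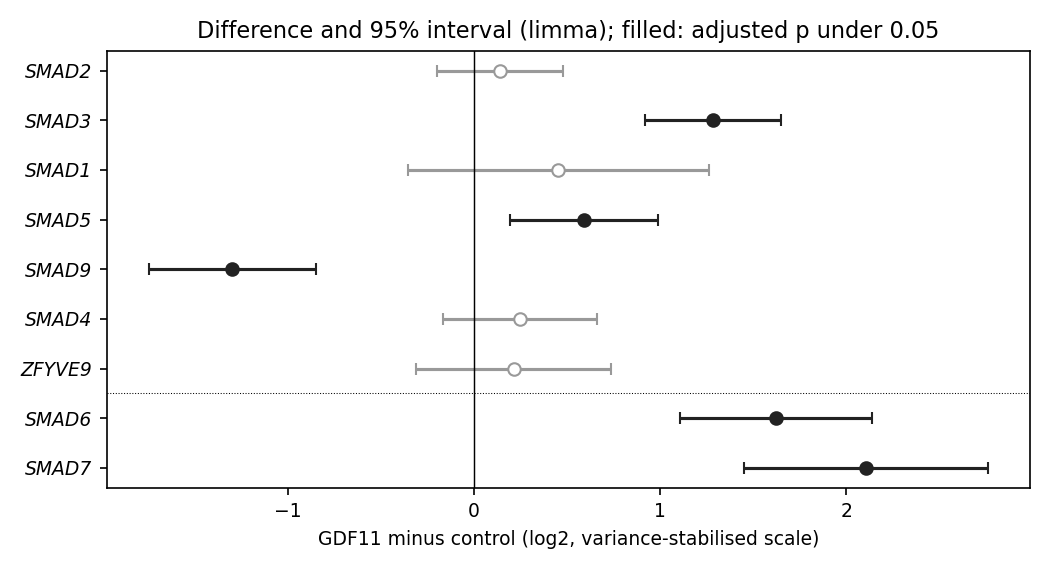
GDF11 minus control (horizontal axis, log2 on the variance-stabilised scale) with limma 95% intervals; filled points have an adjusted p under 0.05, and SMAD6 and SMAD7, the inhibitory SMADs, stand under the dotted line. The intervals of SMAD3, SMAD5, SMAD9, SMAD6 and SMAD7 lie clear of 0, and the interval of SMAD1 (-0.35 to 1.26) is the widest of the 7 genes.

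Over all tested genes, control replicate 3 was unlike the remaining controls. On the first principal component (70.1% of the variance of all tested genes) it lay at 19.97, with the other controls at 46.49 and 52.24 and the GDF11 libraries between -45.4 and -35.2. Its RNA integrity number was 9.6, against 9.8 and 9.9 in control replicates 1 and 2, and it was 9.6, 9.5 and 9.4 in GDF11 replicates 1 to 3. Integrity was thus lower in the GDF11 group, and its part in the results was not tested beyond the fit with it as a covariate. In that fit SMAD3 (1.35) and SMAD9 (-1.78) remained called. The differences of SMAD1 (-0.23), SMAD2 (-0.12), SMAD4 (-0.15) and ZFYVE9 (-0.46) changed sign there, and none was called.

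The 7 genes followed control replicate 3 unequally. It exceeded the mean of the other controls by 1.05 for SMAD1, 0.75 for ZFYVE9, 0.63 for SMAD9, 0.56 for SMAD4, 0.22 for SMAD5, 0.21 for SMAD2 and 0.17 for SMAD3. Set on a line on which the mean of control replicates 1 and 2 is 0 and the GDF11 mean is 1, it stood at 1.62 for ZFYVE9, 1.30 for SMAD1, 1.29 for SMAD4 and 0.98 for SMAD2. It stood at 0.33 for SMAD5 and 0.13 for SMAD3. For SMAD9 it stood at -0.58, on the side away from the GDF11 libraries, so that the SMAD9 difference was smaller without it (-1.09, limma adjusted p = 0.000677). Leaving control replicate 3 out raised the members called higher to 4 (SMAD3, SMAD4, SMAD5 and ZFYVE9), and the genes called in the whole table to 3647 higher and 3993 lower.

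**Figure D3:**
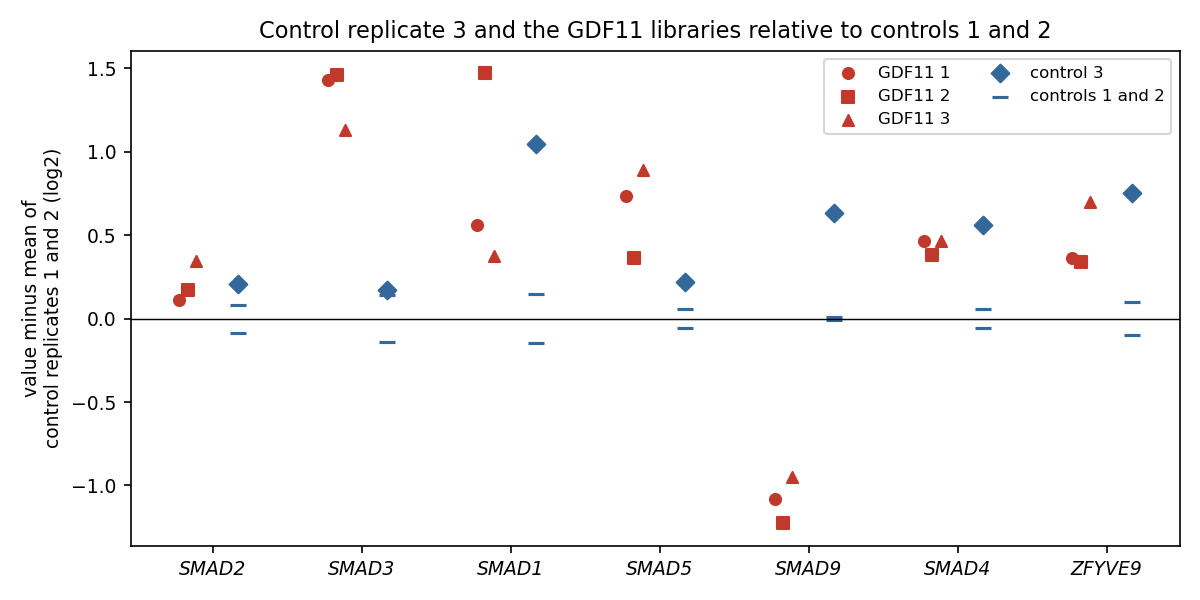
Each library minus the mean of control replicates 1 and 2 (vertical axis, log2): GDF11 replicates in red, left, and controls in blue, right, with control replicate 3 as a diamond and control replicates 1 and 2 as dashes. Control replicate 3 lies among or above the GDF11 libraries for SMAD2, SMAD1, SMAD4 and ZFYVE9, close to the other controls for SMAD3 and SMAD5, and on the far side from the GDF11 libraries for SMAD9.

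Levels were set between genes as reads per kilobase of the longest annotated transcript. With GDF11, SMAD3 had the highest level (796 ± 97.6), then SMAD5 (526 ± 97.3), SMAD4 (252 ± 8.85), SMAD1 (184 ± 91.6), ZFYVE9 (140 ± 21.8), SMAD2 (67.3 ± 6.05) and SMAD9 (21.6 ± 3.28). In controls SMAD5 (342 ± 34.1) and SMAD3 (318 ± 37.6) were within their spread of each other, followed by SMAD4 (214 ± 53.5), SMAD1 (129 ± 70.3), ZFYVE9 (122 ± 43.8), SMAD9 (74.9 ± 24.2) and SMAD2 (60.9 ± 6.33), where each is a mean ± SD of 3 libraries. In both groups the ranges over libraries met between SMAD4 and SMAD1 and between SMAD1 and ZFYVE9. In controls they also met between SMAD3 and SMAD4, between ZFYVE9 and SMAD9 and between SMAD9 and SMAD2. On these lengths and with GDF11, SMAD3, SMAD5 and SMAD4 were clear of each other, and so were ZFYVE9, SMAD2 and SMAD9. The place of SMAD2 rests on its annotated length, since its longest transcript has 34626 bases and its median transcript 935. With the median lengths SMAD2 (2493 with GDF11 and 2254 in controls) stood behind SMAD5 (6016 and 3916) and, with GDF11 only, behind SMAD3 (2971 and 1189). SMAD5 was then above SMAD3 with GDF11 too, and SMAD1 (1064 and 743) was above SMAD4 (577 and 491). The order of the genes thus depends on the lengths, and none is read for SMAD2 or between these pairs.

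Neighbouring and overlapping genes were looked at because the counting is not stated to use strand, so that reads of a gene and of its opposite-strand partner may not be told apart. The long noncoding RNA ENSG00000259347, opposite to SMAD3, was lower with GDF11 (-0.68 ± 0.19, limma adjusted p = 0.0357), a call lost without GDF11 replicate 2, GDF11 replicate 3, control replicate 1 or control replicate 2. CC2D1B, opposite to ZFYVE9, was higher (0.75 ± 0.15, adjusted p = 0.00899), a call lost without GDF11 replicate 1 (adjusted p = 0.0525). SMAD5-AS1, opposite to SMAD5, was not called (0.09 ± 0.11, adjusted p = 0.586) and, at 6.21 with GDF11 and 6.12 in controls, was near the lowest value of the table. SMAD1-AS1, SMAD1-AS2 and SMAD9-IT1 had too few reads to be tested. Adding RNA integrity to the fit ended the calls of ENSG00000259347 (-0.23) and CC2D1B. These neighbours were read out after the values of the 7 genes were known.

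SMAD6, the next gene of its strand before SMAD3 on chromosome 15, was also higher, as was TGFBI, a matrix protein gene beside SMAD5 (1.72 ± 0.16, limma adjusted p = 0.00017). EXOSC8, which encodes an RNA exosome subunit and is a neighbour of SMAD9, was lower (-0.70 ± 0.14, adjusted p = 0.00764), a call that ended with RNA integrity in the fit, whereas its other tested neighbours ALG5 and RFXAP were not called. SMIM32, beside SMAD5, was higher (0.84), and ORC1, an origin recognition complex gene beside ZFYVE9, was lower (-1.07). LCTL, the second gene before SMAD3, was higher (0.57), a call lost without GDF11 replicate 1, without GDF11 replicate 3 and with RNA integrity in the fit. No tested neighbour of SMAD1, SMAD2 or SMAD4 was called.

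The genes most like the most changed members were found by the smallest root-mean-square distance between profiles over the 6 libraries, each centred on its own mean. For SMAD3 these were ABCC11 (distance 0.0364), AXL, a receptor tyrosine kinase gene (0.0483), and TSC22D3 (0.0705). ABCC11 and AXL differed by 1.33 and 1.36, and TSC22D3 stood at 8.09 with GDF11 and 6.89 in controls. For SMAD9 they were FRMD3 (distance 0.0591), RELN, which encodes the secreted protein reelin (0.0902), and C5, the complement component gene (0.110), with differences of -1.35, -1.30 and -1.10. All 3 have control replicate 3 as their highest library, as SMAD9 does. The distances describe the same 6 libraries as the tests and add no support to them.

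The inhibitory SMADs, which block receptor SMADs and are themselves targets of the pathway, were both higher. SMAD6, which acts chiefly on the BMP arm, stood at 10.56, 10.43 and 10.62 in GDF11 replicates 1 to 3 and at 8.37, 9.18 and 9.19 in control replicates 1 to 3 (difference 1.62 ± 0.23, limma adjusted p = 0.00138). SMAD7, which acts on both arms, stood at 11.55, 11.63 and 11.68 with GDF11 and at 9.30, 8.98 and 10.26 in controls (2.10 ± 0.29, adjusted p = 0.00124). With RNA integrity in the fit the SMAD7 difference was 1.25 (adjusted p = 0.0230). Neither overlapped between the groups. The SMAD6 promoter window was the only one of the 9 SMAD and ZFYVE9 genes searched that held GTCTAGAC, 12 bases before its start. The endogenous GDF11 gene was not called (0.16 ± 0.14, adjusted p = 0.429).

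Around the SMADs, 84 partners and regulators were listed by their known role, the inhibitory SMADs included, and 80 of them were tested. Of these, 14 were higher, 5 were lower and 61 were not called, with a median difference of 0.10. Over all tested genes 11.7% were higher and 10.8% lower, with a median of 0.01. Without control replicate 3, 25 were called higher and 11 lower, and without any other single library 10 to 12 higher and 1 to 3 lower. All 18723 tested genes gave 3647 higher and 3993 lower without control replicate 3. Without any other single library they gave 1397 to 1614 higher and 955 to 1189 lower. Among 15 ubiquitin ligases, which mark SMADs and receptors for destruction, and deubiquitinases, 3 were higher and 1 was lower. SMURF2 rose by 1.69 ± 0.21 (limma adjusted p = 0.000785), SMURF1 by 1.24 ± 0.17 (0.00133) and WWP1 by 1.08 ± 0.18 (0.00366). The deubiquitinase UCHL5 was the only one lower (-0.58 ± 0.18, adjusted p = 0.0490), and leaving out any library other than control replicate 2 ended that call.

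Among 10 tested co-repressors of SMAD complexes, 3 were higher and 0 lower, with 1 lower at an unadjusted p under 0.05. Over all 18723 tested genes 11.7% were called higher and 10.8% lower. At the unadjusted threshold 3458 of them were higher and 3499 lower. SKIL averaged 12.26 ± 0.29 with GDF11 and 9.20 ± 0.33 in controls, a difference of 3.06 ± 0.21 (limma adjusted p = 3.45e-05). TGIF1 (1.62 ± 0.18, 0.00036) and SKI (0.91 ± 0.23, 0.0209) were the others, and the SKI call was lost without GDF11 replicate 1, GDF11 replicate 2, control replicate 1 or control replicate 2. SKIL and TGIF1 are also classical SMAD2/3 targets. Among the 9 tested co-activators 0 were higher and 1 was lower, with 2 of each at an unadjusted p under 0.05. The acetyltransferase gene KAT2A was the lower one (-0.48 ± 0.14, adjusted p = 0.0438), and leaving out any library other than control replicate 3 ended that call.

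Of 7 phosphatases reported to remove phosphates from SMADs, 2 were higher and 0 lower, with 2 lower at an unadjusted p under 0.05. For all lists here, the shares over all tested genes were 11.7% called higher and 10.8% lower. At an unadjusted p under 0.05, 3458 of the 18723 tested genes were higher and 3499 lower. PDP1, known chiefly as a mitochondrial pyruvate dehydrogenase phosphatase and reported in Drosophila cells to act on the SMAD homolog Mad, rose by 1.28 ± 0.14 (limma adjusted p = 0.00040), and by 2.09 on a log2 scale of reads plus 1. PPM1A, a nuclear phosphatase of SMAD2 and SMAD3, rose by 0.68 ± 0.15 (0.0114), a call lost without GDF11 replicate 1 or GDF11 replicate 2. Of 11 anchors and nuclear transport factors, 0 were higher, also at an unadjusted p under 0.05, and 1 was lower. This was RANBP3, a nuclear export factor of SMAD2 and SMAD3 (-0.63 ± 0.19, adjusted p = 0.0463), a call that ended when any library other than control replicate 3 was left out. Of 10 kinases that act on SMADs in other pathways, 2 were higher and 0 lower, and at an unadjusted p under 0.05 there were 5 higher and 0 lower. MAPK14 (0.60 ± 0.15, adjusted p = 0.0205) and GSK3B (0.53 ± 0.14, 0.0303) were the higher ones, and the same omissions ended both calls.

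Of 16 tested transcription factors that bind DNA together with SMADs, 2 were higher, 2 were lower and 12 were not called. These counts are near the shares over all tested genes, 11.7% higher and 10.8% lower. JUN, a subunit of AP-1, rose by 1.60 ± 0.19 (limma adjusted p = 0.000489) and FOXO1 by 0.87 ± 0.17 (0.00803). TEAD4, a Hippo pathway factor, was lower (-1.31 ± 0.24, 0.00485), and so was GATA4 (-0.72 ± 0.18, 0.0213), whose call also ended when any library other than control replicate 3 was left out. With RNA integrity in the fit these partners and regulators were no longer called: WWP1 (0.66), SKI, KAT2A (-0.27), PPM1A, RANBP3 (-0.13), MAPK14, GSK3B, FOXO1 (0.46), TEAD4 (-0.72) and GATA4 (-0.30). SMURF2 (1.05) and UCHL5 (-0.96) kept their calls there at other sizes.

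Known targets were counted by arm. Both target lists were chosen with earlier results of these data known. Of 24 tested SMAD2/3 targets, 19 were higher and 0 lower, with a median difference of 1.84. Over all tested genes 11.7% were higher and 10.8% lower. At an unadjusted p under 0.05, 20 of these targets were higher and 0 lower, against 3458 higher and 3499 lower of all 18723 tested genes. LTBP2, a matrix protein gene, stood at 12.43, 12.41 and 12.49 with GDF11 and at 8.13, 8.28 and 8.08 in controls (4.28 ± 0.14, limma adjusted p = 1.05e-06). JUNB (4.05 ± 0.14), FSTL3, an extracellular antagonist of activins and GDF11 (3.66 ± 0.15), and LEFTY2 (3.16 ± 0.14) came next by p. Of 9 tested SMAD1/5/9 targets, 3 were higher (BAMBI, HEY1 and SMAD6), 3 were lower (HAMP, ID3 and ID4) and 3 were not called, with a median of 0.27. HAMP, the hepcidin gene, stood at 7.77, 7.72 and 7.45 with GDF11 and at 9.16, 9.36 and 8.89 in controls (-1.49 ± 0.17, adjusted p = 0.00048). ID3 (-0.55 ± 0.14, 0.0211) and ID4 (-0.40 ± 0.13, 0.0492), named after their values were seen, each lost the call without 5 of the 6 libraries and with RNA integrity in the fit. ID1, a common readout of BMP signalling, was 13.43, 13.52 and 13.41 with GDF11 and 13.17, 13.26 and 13.12 in controls. Its groups did not overlap, but the difference of 0.27 ± 0.14 was not called (adjusted p = 0.189). The difference between the target lists was not tested, and they share BAMBI, a gene that either arm can drive.

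**Figure D4:**
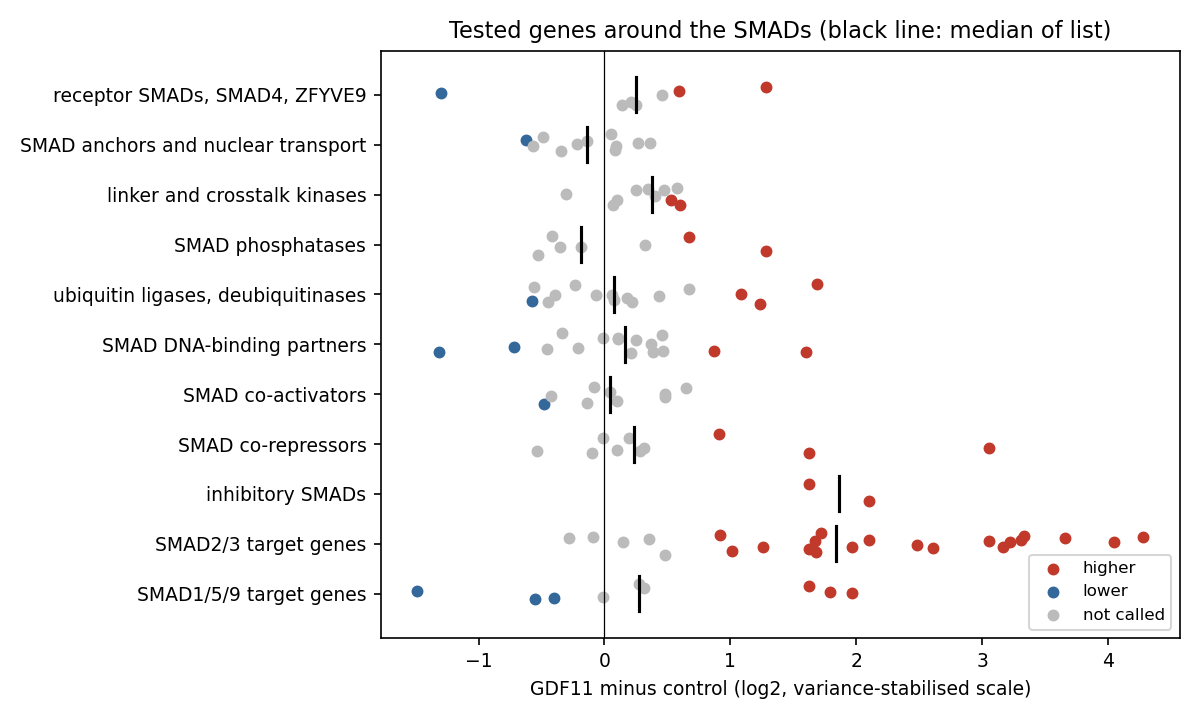
GDF11 minus control (horizontal axis, log2) of each tested gene in lists of SMAD partners, regulators and targets, 1 row a list; red points were called higher, blue lower and grey not called, and black lines are medians. SMAD2/3 target genes (median 1.84) lie mostly to the right, while most partners and regulators lie near 0 and the receptor SMADs spread from -1.30 to 1.28.

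The cells were checked against markers of liver and of other cell types. All 10 hepatocyte markers were tested, with values between 10.73 and 19.56, and 6 were lower and 0 higher with GDF11. Over all tested genes 10.8% were lower and 11.7% higher. The summed normalised reads of the hepatocyte markers were 1442106 to 1609182 in GDF11 libraries and 1799689 to 2498989 in controls. PTPRC and MARCO (macrophage), CD3E, CD2 and MS4A1 (lymphocyte) and TEK and CLEC14A (endothelial) had no reads in any library. CD68 (11.19 to 11.77 over the libraries) and CD14 (8.16 to 9.70) of the macrophage list lay well above the floor and were not called. PDGFRB of the fibroblast list (9.71 to 11.37 over the libraries) and CSF1R of the macrophage list (5.52 to 6.53) were higher. VWF of the endothelial list (5.99 to 7.27) was lower. CSF1R and VWF lay near the floor of 5.52, and PDGFRB did not. Their part in the SMAD results was not tested.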

How the data were processed

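Directional libraries from 250 ng of RNA were sequenced as single reads of 75 bases, per the labels' protocols. The submitters' processing notes name Trimmomatic, Salmon 1.2.1, DESeq2 and GRCh38, whereas the labels' protocols name STAR 2.6 and hg19; the sources used here do not say which gave the values. The table deposited by the authors holds variance-stabilised log2 values. Inverting the variance-stabilising curve gave normalised reads, and depth was estimated at 47900000 to 53400000 reads. Of low values (20 reads at most), only 71.0% to 74.2% were whole within 0.01, so no count test was run.

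Genes averaging 0.5 or more above the table's floor entered limma 3.58.1 (R 4.3.3, mean trend, two-sided, Benjamini-Hochberg adjustment at 0.05). The limma fit was also run on simulated data with independent noise and few changed genes, all upwards. That simpler setting does not test the calls made here. Symbols matched 58349 of 60240 IDs (96.9%). Positions and promoters are RefSeq's (GRCh38.p14); transcript lengths come from GENCODE lifted to GRCh37. The members and gene lists were chosen with earlier results of these data known. Named are all members, SMAD6, SMAD7, GDF11, up to 4 genes of lowest p per list, and 3 most similar genes for the 2 most changed members. Alternatives covered filters, normalization, variance prior, weights, covariates, scale, thresholds, transcript length, and leaving out each library.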

Additional observations from a re-analysis of the deposited data

How the results depend on the processing

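The calls of SMAD3 (difference 1.17 to 1.46, limma adjusted p at most 0.00899) and SMAD9 (-1.78 to -1.09, at most 0.0108) kept their direction and their side of the threshold in 20 of 20 other settings. SMAD5 lost its call in 8 of 20: with no filter on low values (0.59), with median centring (0.53), with RNA integrity in the fit (0.36), at an adjusted p under 0.01 (0.59), and in 4 of 6 omissions of a library (0.48 to 0.58, against 0.74 and 0.66 in the omissions that kept it). SMAD4 was called with library weights (0.37, adjusted p = 0.0202) and ranged from 0.13 to 0.44 when libraries were left out. ZFYVE9 ranged from 0.039 to 0.47. With RNA integrity in the fit the sign turned for SMAD1 (-0.23), SMAD2 (-0.12), SMAD4 (-0.15) and ZFYVE9 (-0.46), and SMAD2 stood at -0.39 (adjusted p = 0.133) once trends on GC and length were taken out, an alternative added after seeing the data. The cause was not tested. Members called higher numbered 1 with no filter, with median centring, with RNA integrity in the fit and at 0.01, and 1 to 4 when libraries were left out.

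Pathway genes called lower numbered 2 with no filter, 8 with median centring, 14 with library weights, 3 with RNA integrity, 1 at 0.01, 10 at 0.1, 11 without the GC and length trend and 1 to 11 with a library left out, against 5 in the report. Those called higher numbered 33 with library weights and 10 to 25 with a library left out, against 14. With library weights 4473 of all genes were higher and 4554 lower (1149 and 721 with RNA integrity, 1170 and 791 at 0.01, 1397 to 3647 and 955 to 3993 with a library left out). Replicate numbers are not stated to pair the libraries. Correlations of same-numbered deviations were -0.09, 0.38 and 0.48, and those of different-numbered ones ran from -0.47 to 0.25. Whether the libraries are paired cannot be told from these few values. With the replicate block 3147 genes were higher and 3306 lower, 22 and 12 among the pathway genes, and SMAD5 had an adjusted p of 0.00879. Of the members' calls the block changed none. Among called genes 52.0% were higher, against 45.5% with median centring and 48.9% with quantile normalization.

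With median transcript lengths, reads per kilobase with GDF11 and in controls were 1064 and 743 for SMAD1, 2493 and 2254 for SMAD2, 2971 and 1189 for SMAD3, 577 and 491 for SMAD4, 6016 and 3916 for SMAD5, 63.2 and 219 for SMAD9, and 222 and 194 for ZFYVE9. With MANE Select transcripts ZFYVE9 stood at 197 and 172. No absolute level is read from them. SMAD9, at 102 to 572 normalised reads, is the member in which the compressed scale matters most. The differences of SMAD2, SMAD4 and ZFYVE9 lay within the spread of these 6 libraries.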
